A study of Homo sapiens with 11 samples.

Results

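The BCL2 family genes described here are 10 genes that set whether a cell survives or dies by the mitochondrial route, taken by symbol from the 20500 entries of the table of 786-0 cells: BCL2, BCL2L1, MCL1 and BCL2A1, which encode survival proteins, BCL2L11, PMAIP1, BBC3 and BID, which encode death inducers with a single BH3 domain, and BAX and BAK1, which encode the proteins that open the outer mitochondrial membrane. All 10 symbols were found. 786-0 is an established human cell line from a clear cell carcinoma of the kidney, without a working VHL gene. The 5 everolimus samples received the drug in DMSO for 4 h at a dose that the labels write as 10um, and the 6 control samples received DMSO vehicle for 4 h, all in DMEM. Everolimus is a derivative of rapamycin that binds FKBP immunophilins and so blocks mTOR complex 1. A single line was studied, and the labels do not say if the replicates were cultured separately, so p-values reflect the spread of these samples alone, which could be technical.

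Cells hold the effectors BAX and BAK in check through the survival proteins BCL2, BCL-xL (from BCL2L1), MCL1 and BFL1 (from BCL2A1). BH3-only proteins, namely BIM (from BCL2L11), NOXA (from PMAIP1), PUMA (from BBC3) and BID, bind the groove of the survival proteins, and some of them also activate the effectors. Once the effectors open the outer membrane, cytochrome c reaches the cytosol and the apoptosome activates caspases. MCL1 protein turns over fast, NOXA binds mainly MCL1 and BFL1, and BCL2A1 and BCL2L1 are known targets of NF-kappaB. The values here are gene-level transcript levels: they hold neither protein nor cell death, and they do not separate the isoforms of BCL2L1, MCL1 and BCL2L11, some of which act in opposite ways.

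The libraries held 29760923 to 52522755 estimated reads with everolimus and 14230655 to 36828267 in the controls. Levels are in units, which are estimated reads scaled by the authors to an upper quartile (of the genes above 0) of about 1000 per library. A single read came to 0.307 to 0.527 units with everolimus and 0.418 to 1.05 units in the controls. The share of low values that are a whole number of reads (89.4% to 90.3% against 93.4% to 93.9%) divided the libraries into a first set (everolimus 1 and 2, controls 1 to 3) and a second set (everolimus 3 to 5, controls 4 to 6), and changes are also given within each set. The renal transcription factor gene PAX8 stood at 3788 ± 107 units with everolimus and 3189 ± 78.7 in the controls (SD, n = 5 and 6). The 14 markers of other cell types summed to 453 to 527 units with everolimus and 471 to 562 in the controls. CD68 made up most of this sum, at 367 ± 22.6 units with everolimus and 385 ± 37.3 in the controls. COL1A1 (61.2 and 75.5 units) and EPCAM (67.5 and 55.2) were also detected, while CD3E, MS4A1, PECAM1 and AQP2 were at 0 in every library. Fewer cells of a kind and less RNA per cell cannot be told apart in these bulk samples.

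The stretches before the start sites of 5 of the genes are shown because these genes rose most, fell most or did not pass the test. They are the 250 bases before the RefSeq start of each gene (build GRCh38.p14, whereas the reads were processed on hg19), written 5′ to 3′ on the gene's strand, with matches to any of 5 motifs in capitals. Overlapping matches run together.
BCL2A1 (chr15:79971197-79971446, minus strand): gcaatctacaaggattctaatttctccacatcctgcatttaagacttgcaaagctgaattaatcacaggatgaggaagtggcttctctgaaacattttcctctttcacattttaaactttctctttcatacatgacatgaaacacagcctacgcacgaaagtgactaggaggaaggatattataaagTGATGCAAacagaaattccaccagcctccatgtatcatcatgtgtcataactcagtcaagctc
BBC3 (chr19:47232668-47232917, minus strand): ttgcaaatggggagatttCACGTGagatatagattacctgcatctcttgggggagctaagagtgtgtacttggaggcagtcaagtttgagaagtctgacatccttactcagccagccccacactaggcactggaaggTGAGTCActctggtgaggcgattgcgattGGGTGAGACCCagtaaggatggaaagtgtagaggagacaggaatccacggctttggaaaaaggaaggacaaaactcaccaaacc
PMAIP1 (chr18:59899746-59899995, plus strand): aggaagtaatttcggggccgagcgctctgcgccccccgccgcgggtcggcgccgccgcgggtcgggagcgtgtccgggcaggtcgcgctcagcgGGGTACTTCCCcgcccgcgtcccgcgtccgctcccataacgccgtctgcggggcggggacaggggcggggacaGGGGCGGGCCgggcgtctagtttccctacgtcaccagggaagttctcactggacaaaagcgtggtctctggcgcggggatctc
BCL2L11 (chr2:111120664-111120913, plus strand): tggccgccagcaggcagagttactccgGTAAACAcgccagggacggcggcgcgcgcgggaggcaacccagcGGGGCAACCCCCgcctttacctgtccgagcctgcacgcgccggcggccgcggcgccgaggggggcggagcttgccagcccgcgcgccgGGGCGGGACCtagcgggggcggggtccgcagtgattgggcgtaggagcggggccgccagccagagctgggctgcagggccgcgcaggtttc
BAX (chr19:48954625-48954874, plus strand): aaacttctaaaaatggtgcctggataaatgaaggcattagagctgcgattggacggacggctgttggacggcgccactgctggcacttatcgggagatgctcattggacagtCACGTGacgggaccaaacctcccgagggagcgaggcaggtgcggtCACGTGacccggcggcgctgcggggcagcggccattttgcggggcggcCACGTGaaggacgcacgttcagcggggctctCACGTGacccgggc

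The motifs were searched on both strands: GGGNNNNNCC for NF-kappaB, TGANTCA for AP-1, GTAAACA for FOXO, CACGTG (the E-box) and TGATGNAA for C/EBP-ATF dimers. Of 35116 such windows in the RefSeq table, 54.4% held the NF-kappaB letters, 6.57% the AP-1 letters, 2.98% the FOXO letters, 6.34% the E-box and 3.14% the C/EBP-ATF letters. The BCL2A1 window held 1 C/EBP-ATF match, 63 to 56 bases before the start, and no match to the other motifs. The BBC3 window held 1 AP-1 match, 113 to 107 bases before the start, 1 E-box and 2 overlapping NF-kappaB matches. The BCL2L11 window held 1 FOXO match, 223 to 217 bases before the start, and 4 NF-kappaB matches, 3 of them overlapping. PMAIP1 had 3 NF-kappaB matches, and BAX had 4 E-boxes and no other match. In the remaining windows, the 2 of BCL2L1 held none of the motifs, while BCL2 (1 window), BAK1 (1) and BID (5) held NF-kappaB matches. The windows of BID overlap in part and share some matches, and the E-box found in 2 of them is the same site. Windows were found for 9 of the 10 genes, and none for MCL1. These matches are letters in a window and were not tested for binding.

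With everolimus, 6 of the 10 genes rose and 2 fell, and both survival and death genes were on each side. Of all 12668 genes tested, 55.2% passed the threshold (limma, Benjamini-Hochberg adjusted p under 0.05), 27.8% higher and 27.4% lower, so a change as such was common in these libraries. BCL2A1, BCL2L1 and MCL1 rose among the survival genes and BCL2 fell. BBC3, PMAIP1 and BID rose among the BH3-only genes and BCL2L11 fell, while the effectors BAX and BAK1 did not pass. In 7 of the 10 genes every everolimus library lay on 1 side of every control library, which held for 37.9% of all tested genes. All 10 genes passed the filter on low values, but BCL2A1 passed it only through the everolimus libraries and so had to differ.

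**Figure D1:**
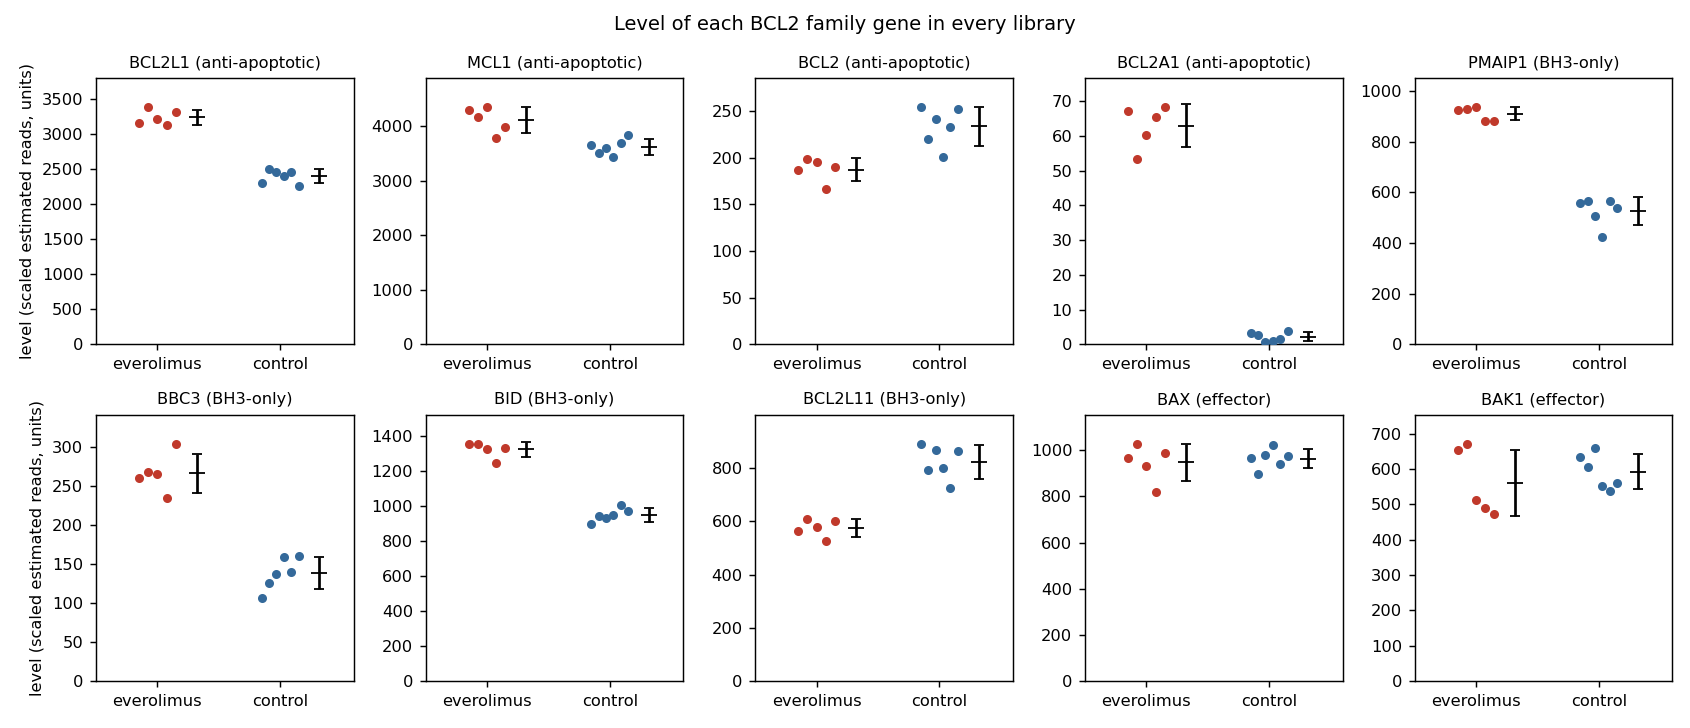
Level of each gene in units (linear axis from 0, a scale per panel) in the 5 everolimus libraries, left, and the 6 control libraries, right, with bars for the mean ± SD. The groups are apart for BCL2L1, BCL2, BCL2A1 and the 4 BH3-only genes, and overlap for MCL1, BAX and BAK1.

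Among the survival genes, BCL2A1 was nearly silent in the controls and present in every everolimus library. It encodes BFL1, a survival protein best known from blood cells. It stood at 67.2, 53.4, 60.4, 65.3 and 68.4 units in everolimus libraries 1 to 5, against 3.21, 2.70, 0.58, 1.05, 1.36 and 3.76 units in controls 1 to 6. The lowest everolimus library was far above the highest control. In reads this was 124 to 197 per library with everolimus, 807 in all, against 1 to 9 per library in the controls, 22 in all, and the ratio of the pooled rates was 28.3 (exact 95% interval 18.6 to 45.5, counting error only). The fitted log2 fold change was 4.47 (SE 0.277), and no p is read from it, since the filter fixed that the gene differs. Within the first set the value was 4.39, and within the second 4.53. On this scale the value depends on the pseudocount, and it was 5.08 with 0.1 and 2.59 with 10 in place of 1. PTPRC, the common marker of blood cells, averaged 0.0613 units with everolimus and 0 in the controls.

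BCL2L1 rose in every library. It encodes BCL-xL, and in the same gene a shorter, death-promoting isoform that these values include. Its levels were 3154, 3383, 3205, 3118 and 3312 units in everolimus libraries 1 to 5, against 2305, 2500, 2450, 2405, 2462 and 2253 units in controls 1 to 6. No control reached the lowest everolimus library. The change was 1.35-fold (log2 0.43, SE 0.035, limma adjusted p = 1.13e-07), and 0.43 and 0.44 on the log2 scale in the sets. An exact two-sided permutation test over the 462 ways to divide the libraries gave p = 0.00216, the smallest p this design allows.

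MCL1, whose product has a short half-life, rose by less. It stood at 4290, 4157, 4349, 3780 and 3973 units in everolimus libraries 1 to 5, against 3654, 3512, 3592, 3422, 3694 and 3831 units in controls 1 to 6. Everolimus library 4 lay below control 6, so the groups overlap by 1 library each. The log2 fold change was 0.18 (SE 0.041, limma adjusted p = 0.00160; exact permutation p = 0.00649). Within the first set it was 0.24 (limma adjusted p = 0.00141). Within the second it was 0.14 and did not pass (limma adjusted p = 0.0793). The limma test of the difference between the sets had an unadjusted p = 0.281 and an adjusted p = 0.889.

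BCL2, the founding survival gene, fell. Its levels were 187, 199, 195, 166 and 190 units in everolimus libraries 1 to 5, against 254, 220, 241, 200.4, 232 and 252 units in controls 1 to 6. Control 4 came within a few units of everolimus library 2, and the groups just do not overlap. BCL2 averaged 187 ± 12.8 units with everolimus and 233 ± 20.5 in the controls (SD, n = 5 and 6), a log2 fold change of -0.31 (SE 0.071, limma adjusted p = 0.00164; exact permutation p = 0.00433). The change was -0.31 in each set.

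Of the 4 BH3-only genes, BBC3 showed the largest rise. BBC3 encodes PUMA, which binds every survival protein of the family. It stood at 259.9, 267, 266, 235 and 304 units in everolimus libraries 1 to 5, against 106, 126, 137, 159, 140.3 and 160.2 units in controls 1 to 6. Every everolimus library was above the highest control. The level was 1.93 times that of the controls (ratio of means), with a log2 fold change of 0.95 (SE 0.101, limma adjusted p = 1.91e-06; exact permutation p = 0.00216). The change was 1.10 within the first set, where the controls averaged 123 units, and 0.80 within the second, where they averaged 153. The limma test of this difference between the sets had an unadjusted p = 0.0883 and an adjusted p = 0.803.

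PMAIP1, which encodes NOXA, rose with the least spread, relative to its mean, among the everolimus libraries. It stood at 924, 929, 938, 881 and 883 units in everolimus libraries 1 to 5, against 559, 565, 506, 422, 565 and 538 units in controls 1 to 6. The controls were lower throughout, control 4 most of all. The ratio of means was 1.73 and the log2 fold change 0.80 (SE 0.067, limma adjusted p = 1.61e-07; exact permutation p = 0.00216), with 0.77 and 0.83 in the sets.

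BID, which caspase-8 cleaves to link death receptors to mitochondria, rose too. It stood at 1354, 1353, 1326, 1246 and 1329 units in everolimus libraries 1 to 5, against 893, 938, 927, 945, 1006 and 969 units in controls 1 to 6. Everolimus library 4 was apart from the other 4 and still above every control. The log2 fold change was 0.48 (SE 0.037, limma adjusted p = 6.31e-08, exact permutation p = 0.00216), with 0.56 and 0.42 in the sets. The limma test of the difference between the sets had an unadjusted p = 0.0758 and an adjusted p = 0.803.

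BCL2L11 was the BH3-only gene that fell. It encodes BIM, known as a target of FOXO factors. It stood at 562, 609, 579, 525.9 and 601 units in everolimus libraries 1 to 5, against 892, 794, 869, 801, 724 and 863 units in controls 1 to 6. Every everolimus library was lower than the lowest control. The level averaged 575 ± 33.1 units with everolimus and 824 ± 62.8 in the controls (SD, n = 5 and 6), with a log2 fold change of -0.52 (SE 0.057, limma adjusted p = 2.68e-06; exact permutation p = 0.00216) and -0.54 and -0.48 in the sets.

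The effectors did not pass the test. BAX stood at 966, 1029, 934, 821 and 987 units in everolimus libraries 1 to 5, against 966, 897, 981, 1021, 942 and 974 units in controls 1 to 6 (log2 fold change -0.03, SE 0.053, limma adjusted p = 0.689). The groups overlap almost fully. BAK1 stood at 654, 672, 514, 491 and 474 units in everolimus libraries 1 to 5, against 636, 607, 659, 553, 537 and 561 units in controls 1 to 6 (-0.09, SE 0.093, adjusted p = 0.444). BAK1 followed the library set: it was 654 to 672 units with everolimus and 607 to 659 in controls of the first set, and 474 to 514 and 537 to 561 units in the second. Within the sets its log2 fold change was 0.07 (limma adjusted p = 0.416) and -0.16 (adjusted p = 0.0734). The limma test of the difference between the sets had an unadjusted p = 0.0188 and an adjusted p = 0.786. With 2 or 3 libraries per group in each set, this test can miss a difference, so the sets are not taken to agree. BAK1 has 2 processed pseudogene copies by name in GENCODE 29, and how reads were divided among them is not known.

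**Figure D2:**
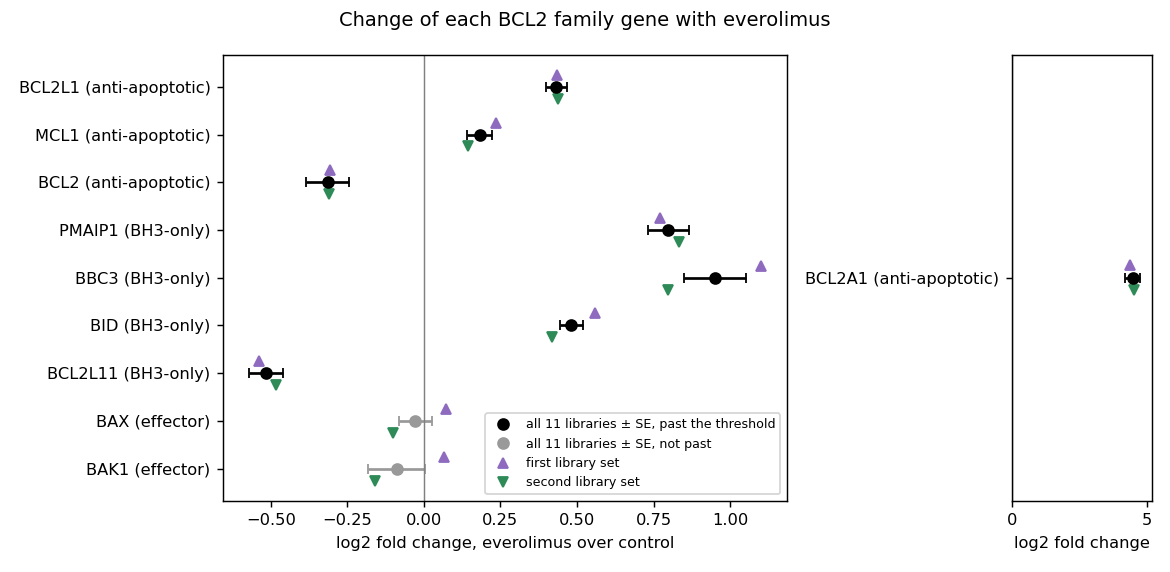
Log2 fold change of everolimus over control (x axis) for each gene, with BCL2A1 on an axis of its own, as circles with SE for all 11 libraries and as triangles within each library set. The 8 called genes have the same sign in both sets, whereas BAX and BAK1 are above 0 in the first set (0.07 each) and below it in the second (-0.10 and -0.16).

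Set against each other, survival and death genes did not move as blocks. Of the 4 survival genes 3 rose and 1 fell, with a median log2 fold change of 0.31, or 0.18 over the 3 without BCL2A1. Of the 6 death genes 3 rose, 1 fell and 2 did not pass, with a median of 0.23, which divides into 0.64 for the 4 BH3-only genes and -0.06 for the 2 effectors. The median over all 12668 tested genes was -0.01. The difference between the class medians was 0.08 over all libraries, 0.02 and 0.13 within the library sets, and its SD over the everolimus libraries was 0.0692. Its sign rests on BCL2A1: with that gene left out, an alternative added after the data were seen, the difference was -0.04 over all libraries and -0.08 and -0.01 within the sets. No test was made over the genes of a class, since they share libraries.

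Pairs of genes within a library show where the balance of transcripts differed. A ratio of levels also depends on transcript lengths, so its size is not read, only its difference between groups, and the pairs were picked after the values were seen. BCL2L1 over BCL2L11 was 5.51 to 5.93 in everolimus libraries and 2.58 to 3.40 in controls, a difference of 0.95 on the log2 scale toward the survival gene. MCL1 over PMAIP1, the transcripts of a survival protein and of the BH3-only protein that binds it, was 4.29 to 4.65 with everolimus and 6.21 to 8.11 in controls, a difference of -0.62 toward the death gene. BCL2L1 over the effectors was higher with everolimus: over BAX it was 3.27 to 3.80 with everolimus and 2.31 to 2.79 in controls (log2 difference 0.46), and over BAK1 it was 4.82 to 6.98 and 3.63 to 4.59 (0.52). BCL2 over BAX was 0.192 to 0.209 with everolimus and 0.196 to 0.263 in controls, with control 4 inside the everolimus range. Among BH3-only genes, BBC3 over BCL2L11 was 0.440 to 0.507 with everolimus and 0.119 to 0.199 in controls. Among survival genes, BCL2L1 over BCL2 was 16.4 to 18.8 with everolimus and 8.95 to 12.0 in controls.

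**Figure D3:**
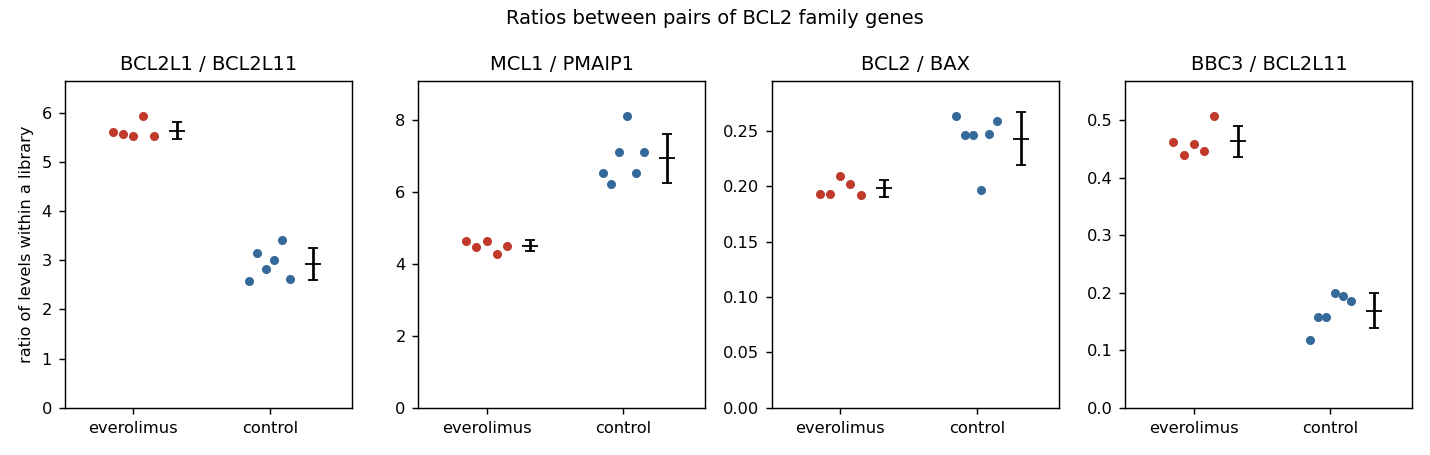
Ratio of the levels of 2 genes within each library (linear axis from 0), with the 5 everolimus libraries left and the 6 controls right, and bars for the mean ± SD. BCL2L1 over BCL2L11 and BBC3 over BCL2L11 are higher in all everolimus libraries, MCL1 over PMAIP1 is lower in all of them, and BCL2 over BAX overlaps through control 4.

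Levels between genes were compared per kilobase of the longest coding transcript in GENCODE 29, an annotation other than the authors'. With everolimus the order from high to low was BCL2L1 (1239 ± 42.4 units per kilobase, SD, n = 5), MCL1 (1045 ± 59.6), BAX (698 ± 58.1), BID (530 ± 17.7), PMAIP1 (468 ± 13.8), BAK1 (254 ± 42.7), BBC3 (145 ± 13.6), BCL2L11 (110 ± 6.33), BCL2A1 (60.9 ± 5.93) and BCL2 (25.1 ± 1.71). In the controls it was MCL1 (920 ± 36.5, n = 6), BCL2L1 (918 ± 37.1), BAX (710 ± 30.7), BID (379 ± 15.4), PMAIP1 (269.9 ± 28.6), BAK1 (268 ± 22.3), BCL2L11 (157 ± 12.0), BBC3 (75.2 ± 11.2), BCL2 (31.3 ± 2.75) and BCL2A1 (2.04 ± 1.25). MCL1 and BCL2L1 did not differ beyond their spread in the controls, nor did PMAIP1 and BAK1, whereas neighbours in the everolimus order did not overlap. BCL2 was the lowest of the 10 with everolimus and BCL2A1 in the controls. With the union of exons as the length, PMAIP1 and BAK1 changed places in the controls, and BID and PMAIP1 overlapped with everolimus (444 to 482 and 420 to 447).

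**Figure D4:**
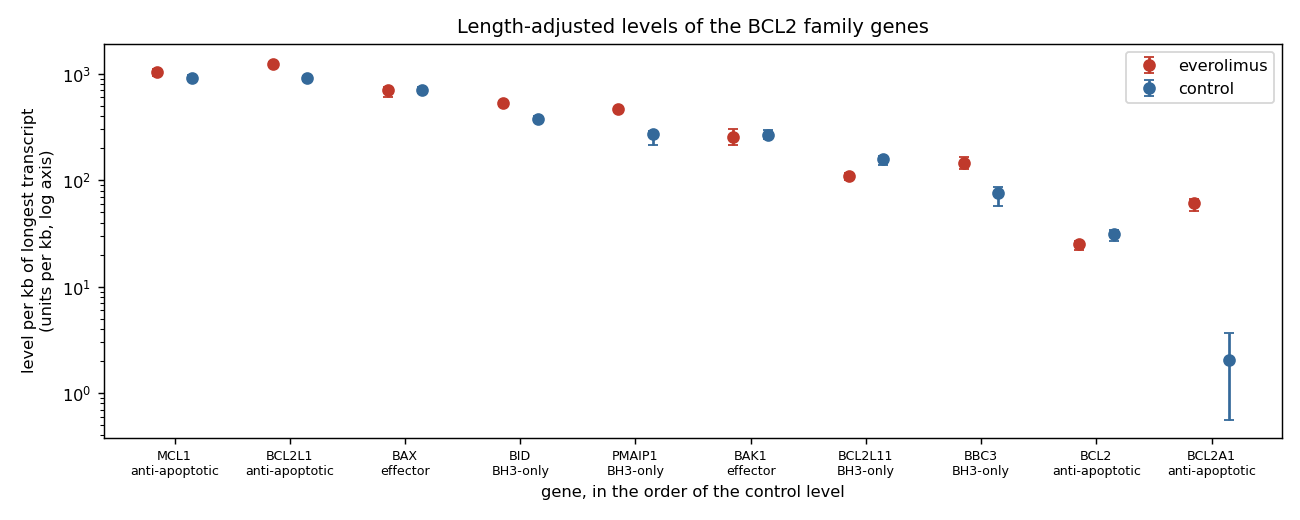
Level of each gene in units per kilobase of its longest coding transcript (log axis), with the mean and the lowest to highest library, everolimus left and control right for each gene. MCL1 and BCL2L1 lie together at the top in the controls (920 and 918), and BCL2A1 is above BCL2 with everolimus (60.9 and 25.1) but below it in the controls (2.04 and 31.3).

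The other genes of the family also went both ways. Among 13 listed genes 10 were tested, and 5 rose and 3 fell, against 27.8% and 27.4% of all tested genes. Their median log2 fold change was 0.11 (-0.01 over all tested genes). BIK, a BH3-only gene, rose at a low level, to 18.7 ± 4.12 units with everolimus against 8.44 ± 1.86 in the controls (1.06, SE 0.200). Only 7 libraries, among them all with everolimus, reached the 10 units of the filter. BIK is counted among the 5 that rose, but it passed the filter mainly through the group where it is high, so no p is read. BOK, a relative of the effectors, rose to 1362 ± 55.3 units, against 838 ± 75.3 in the controls (0.70, SE 0.056), and BNIP3L, a mitophagy receptor, rose by 0.56 (SE 0.057). BCL2L15 fell to 62.4 ± 4.68 units, against 119 ± 17.7 in the controls (-0.91, SE 0.104). BCL2L12 fell by 0.31 and BCL2L13 by 0.11 on the log2 scale, calls that were lost within the first set (adjusted p = 0.0736 and 0.218), and for BCL2L13 also within the second (adjusted p = 0.120) and without everolimus 4 (0.0549). HRK was at 0 in every library, and BCL2L10 and BCL2L14 averaged under 1 unit in each group.

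Downstream of the mitochondria, transcripts of pore and apoptosome genes went both ways. Of 10 tested, 2 rose and 2 fell (quantile normalized, 2 and 4; first set alone, 2 and 1; second set alone, 0 and 2), with a median of -0.02, where 55.2% of all tested genes were called. CASP9, the initiator caspase of the apoptosome, fell to 196 ± 15.3 units, against 335 ± 25.7 in the controls (log2 -0.77, SE 0.065, limma adjusted p = 1.59e-07). AIFM1 fell by 0.21 (within the first set, adjusted p = 0.0616), whereas HTRA2 (0.21) and the apoptosome scaffold APAF1 (0.17) rose, both short of the threshold in the second set (adjusted p = 0.277 and 0.0700). Cytochrome c (CYCS, 0.04, adjusted p = 0.632) did not pass.

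Of 11 caspases and caspase inhibitors 6 rose and 4 fell, against 27.8% and 27.4% of all tested genes, with a median of 0.10. One of the 6, CASP8, which encodes the initiator caspase of death receptors, only just passed (0.10, limma adjusted p = 0.0489), and its call was lost after quantile normalization (adjusted p = 0.0666), with the library set as a covariate (0.0570), within each set (0.0600 and 0.371) and without any one of 8 libraries (0.0645 to 0.103). The inhibitor BIRC2 rose to 3150 ± 145 units, against 1625 ± 67.2 in the controls (0.95, SE 0.039), and BIRC3 rose by 2.47. CASP10 (-0.52), CASP6 (-0.32) and BIRC5, which encodes survivin (-0.23), fell. Of 9 death receptor genes tested 6 rose and 1 fell, against the same 27.8% and 27.4%, with a median of 0.28. One of the 6, the adaptor gene TRADD (0.25, limma adjusted p = 0.0442), lost its call within the second set (adjusted p = 0.376) and without any one of 9 libraries (0.0581 to 0.125). CFLAR, which encodes the caspase-8 inhibitor FLIP, rose to 3093 ± 192 units, against 1471 ± 48.6 in the controls (1.07, SE 0.042). The receptor genes FAS (1.07) and TNFRSF10A (0.95) rose as well, and the TNF receptor gene TNFRSF1A fell to 1935 ± 132 units, against 3299 ± 149 (-0.77, SE 0.046).

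Of 5 genes that act on MCL1 protein stability 0 rose and 3 fell by small amounts, with a median of -0.13. Of all tested genes, 27.8% rose and 27.4% fell. USP13, a deubiquitinase, fell by 0.21, and the ubiquitin ligase genes BTRC (-0.20) and HUWE1 (-0.13) were called over all libraries but not within the second set (adjusted p = 0.115 and 0.407). Of 15 transcription factors known to act on the 10 genes 9 rose and 2 fell, against the same 27.8% and 27.4%. Their median was 0.39. RELB rose by 1.92 (SE 0.079), FOXO1 by 1.72 (SE 0.071) and MYC by 1.08 (SE 0.058), and DDIT3 (-0.66), which encodes the stress factor CHOP, and ATF4 (-0.31) fell. Named for its known link to BCL2L11 after the values were seen, FOXO3 had a log2 fold change of -0.11 (limma adjusted p = 0.287). Whether any of these factors moved the 10 genes was not tested.

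**Figure D5:**
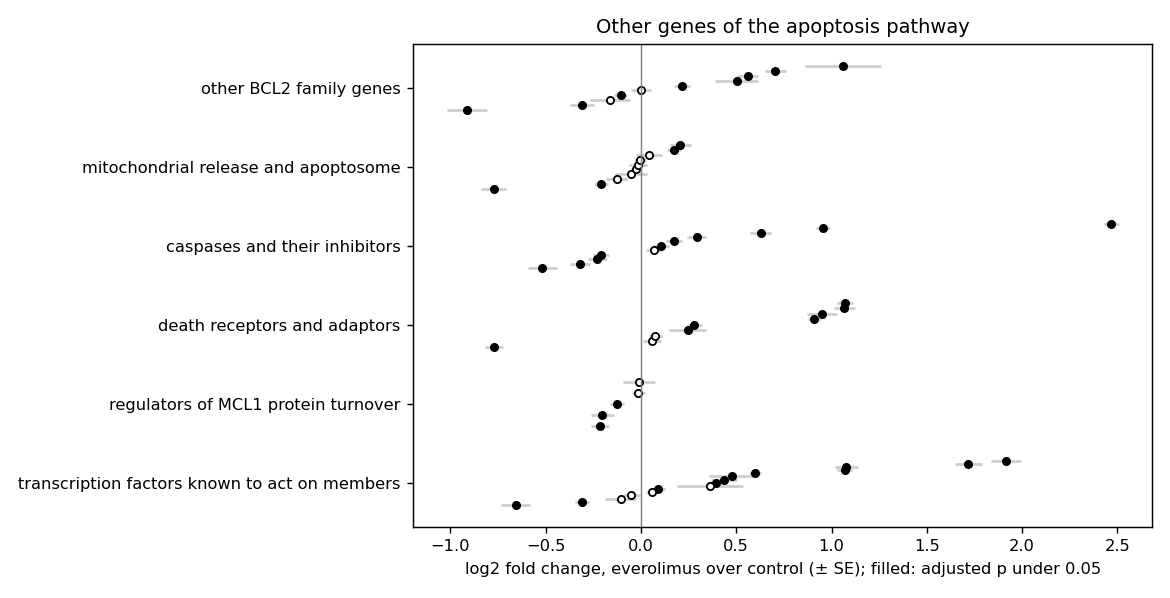
Log2 fold change of everolimus over control with SE (x axis) for every tested gene of 6 lists, filled where the limma adjusted p was under 0.05. Each list has genes on both sides of 0 except the regulators of MCL1 protein turnover, whose 5 genes lie below 0, and BIRC3 (2.47) is the farthest point.

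Genes whose levels over the 11 libraries were most like those of BCL2A1 were CTSW (Pearson r = 0.995, log2 fold change 1.57), PTPN21 (r = 0.991, 0.89) and AHR (r = 0.990, 1.18). For BID, the death gene with the smallest p, they were IER5 (r = 0.996, 0.77), CLIC1 (r = 0.995, 0.43) and MORC4 (r = 0.995, 0.53). These correlations mostly express the difference between the 2 groups, which all these genes share, and are given as a description.

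Of 6 renal markers 4 were called higher and 2 lower, against 27.8% and 27.4% of all tested genes. These counts were 2 and 3 after quantile normalization, and 3 and 2 after median centring. One of the 4, MET (0.11, limma adjusted p = 0.040), lost its call within each set (adjusted p = 0.25 and 0.101). The call was also lost without any one of 7 libraries (0.0672 to 0.103). CDH2 rose by 0.76, PAX8 by 0.25 and VIM by 0.16 (not within the second set, adjusted p = 0.192), and CDH6 (-0.92) and PAX2 (-0.38) fell. Of the 14 markers of other cell types 3 were tested, and EPCAM, at 67.5 ± 3.42 units with everolimus and 55.2 ± 2.63 in the controls, rose by 0.29 (not within the second set, adjusted p = 0.206). Their part in the changes of the BCL2 family was not tested.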

How the data were processed

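RNA from 5 everolimus and 6 control samples was sequenced after a stranded poly(A) library kit, per the labels' protocols. The authors deposited 1 table of a signal, estimated read counts scaled per library; 0 columns were unused. The submitters' processing notes name hg19, Picard 1.64, SAMtools and RSEM without roles. Aligner, annotation, strand setting and reason for scaling were not given in the sources used here. Judged by the values, 89.4% to 93.9% of those up to 200 reads were whole multiples of a step, within 0.1 reads. Since the rest were not, no count model was used.

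The test was limma 3.58.1 (R 4.3.3), with its trend option, on log2(value + 1), two-sided, over genes with at least 10 units in at least 5 samples, with Benjamini-Hochberg adjustment over all tested genes and a threshold of 0.05. Fold changes on this scale understate low genes. The fit was tested on simulated data. Library sets were divided at the largest gap in the share of whole low values. Alternatives covered pseudocount, filter, scaling, trend, replicate block, library set and leaving out each sample. Equal replicate numbers were not taken to pair the samples: deviations correlated at 0.336 to 0.603 for 4 numbers but at -0.508 for number 3, whose libraries lie in different library sets. Named were all 10 members, in each other list the 3 largest called rises and falls, and the 3 genes most like the strongest survival and death gene, and some of these are not reported here. The members, lists and alternatives were chosen with earlier results of these data known.

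GENCODE 29 lists genes overlapping exons of BCL2L1, MCL1, BCL2L11 and BAK1, and of these and the BAK1 copies 1 of 6 (GGNBP1, at most 0.229 units on average) was found in the table by name.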

Additional observations from a re-analysis of the deposited data

Results flagged for a closer look

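In 7 of the 100 groups of libraries checked over the 50 named genes, 1 library stood apart from the rest of its group by a gap that is large for the group's range, and chance gives about 1 in 20. BID was 1246 units in everolimus 4, against 1326 to 1354 in the other 4. Everolimus 4 was also low for IER5 (825.8 units, others 888 to 909) and high for BIRC5 (2319 units, others 2135 to 2152). TNFRSF10A was 191.7 units in everolimus 2 (others 168 to 172), and PTPN21 467.3 units in everolimus 3 (others 437 to 442). Among the controls, CASP9 was 384.1 units in control 4 (others 313 to 339), and ATF4 was 5865 units in control 3 (others 5325 to 5507). Without everolimus 4 the log2 fold change of BID was 0.50.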

How the results depend on the processing

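Each result was recomputed under 22 alternatives, 11 of which leave out 1 library. The number of genes called was 5482 to 7281 in the settings that keep all libraries or a set, and 6431 to 7104 with 1 library left out. Of the 10 BCL2 family genes 7 or 8 were called in every setting, and 8 with any library left out. With the replicate number as a block (5 pairs, without control 6) 6264 genes and 8 of the 10 were called, so the block changed no call among the 10. Of 220 recomputed changes of single members, 219 kept their side of the threshold, and the exception was MCL1 within the second library set. These counts and those of called genes include BCL2A1, which passed the main filter only through the everolimus libraries. Its calls are therefore no check on the result. The sign of BAX or BAK1, neither called, changed 3 times: for both within the first set (0.07 each) and for BAX without everolimus 4 (0.02). The difference between the class medians was 0.02 to 0.13, and 0.0656 to 0.0946 with 1 library left out, but it turned to -0.0438 with BCL2A1 left out, an alternative chosen after the data were seen. Depth limits BCL2A1 in the controls, where 3 reads correspond to 1.25 to 3.15 units, so its counting interval is wide, and the interval does not cover the pseudocount, with which the log2 value ran from 2.59 to 5.08. Everolimus libraries were on the whole deeper than controls.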
